A study of Mus musculus with 2 samples.

Results

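A set of 9 genes that encode Polycomb repressors of the *Cdkn2a* locus was examined in gastric organoids, three-dimensional cultures grown from the stem cells of the stomach. They were *Ezh1*, *Ezh2*, *Eed*, *Suz12*, *Bmi1*, *Cbx2*, *Cbx7*, *Cbx8* and *Rnf2*, and all 9 of 9 had 1 probe set annotated to that gene alone, among the 19505 genes that the array measured with a single symbol. Organoids had been established from the stomachs of C57BL/6 mice, from young animals (2 to 4 months of age) and from aged animals (more than 18 months), and both cultures were kept in the same medium with Wnt3a, R-Spondin1, Chir99021, EGF, Noggin, FGF10, Y-27632, SB431542 and valproic acid, an inhibitor of histone deacetylases. Total RNA of each group was hybridized to 1 Clariom S mouse array, a chip that reads each transcript with a set of short probes. Whether the RNA of an array came from 1 animal or a pool was not given in the sources used here.

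Polycomb proteins keep genes silent through 2 enzyme complexes that modify histones. Polycomb repressive complex PRC2 methylates a lysine of histone H3 through the catalytic subunit EZH2 or its paralog EZH1, with EED and SUZ12 as the core partners that the enzyme needs. PRC1 contains a CBX protein, which binds that methyl mark, and places ubiquitin on histone H2A through the ring finger protein RNF2 (RING1B) with a partner such as BMI1. *Cdkn2a*, which encodes the cell cycle inhibitors p16INK4A and p19ARF, is one of their best known targets in dividing cells. Mouse cells without *Bmi1* express more of both and stop dividing early, and CBX7 and CBX8 extend the life of cultured fibroblasts through the same locus.

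Promoters of *Ezh2*, *Suz12*, *Bmi1* and *Cdkn2a* are shown here. The *Cdkn2a* locus has a separate start site for each of its products, and the repressors are themselves controlled at transcription. Windows of 250 bases before to 50 bases after the start site were taken from RefSeq (GRCm38.p6), which held 8 of the 9 members. *Cbx2* was not among them. Capitals mark a match to an E2F motif (TTTCCCGC, TTTGGCGC, TTTCGCGC or TTTGCCGC, on either strand), the sequence read by the factors that drive S phase genes, or to the E-box CACGTG, the sequence read by Myc and its relatives.
Ezh2, chr6:47594981-47595280, minus strand: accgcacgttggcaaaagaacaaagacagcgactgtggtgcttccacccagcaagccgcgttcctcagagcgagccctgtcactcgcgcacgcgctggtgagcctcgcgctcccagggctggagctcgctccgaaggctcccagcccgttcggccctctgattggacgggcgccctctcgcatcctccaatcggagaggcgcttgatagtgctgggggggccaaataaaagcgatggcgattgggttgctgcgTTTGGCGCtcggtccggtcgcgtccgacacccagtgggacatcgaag
Suz12, chr11:79992856-79993155, plus strand: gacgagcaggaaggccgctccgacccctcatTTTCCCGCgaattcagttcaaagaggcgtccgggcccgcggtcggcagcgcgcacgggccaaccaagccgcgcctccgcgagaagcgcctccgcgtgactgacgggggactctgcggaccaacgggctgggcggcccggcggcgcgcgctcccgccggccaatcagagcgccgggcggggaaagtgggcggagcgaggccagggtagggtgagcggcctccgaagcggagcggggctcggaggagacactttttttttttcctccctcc
Bmi1, chr2:18676768-18677067, plus strand: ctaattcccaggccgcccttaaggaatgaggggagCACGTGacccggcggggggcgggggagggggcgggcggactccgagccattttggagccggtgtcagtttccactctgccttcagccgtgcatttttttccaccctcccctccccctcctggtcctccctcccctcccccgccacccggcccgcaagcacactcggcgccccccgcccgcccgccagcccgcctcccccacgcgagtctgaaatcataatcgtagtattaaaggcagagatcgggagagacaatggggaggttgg
Cdkn2a start of p19ARF, chr4:89294570-89294869, minus strand: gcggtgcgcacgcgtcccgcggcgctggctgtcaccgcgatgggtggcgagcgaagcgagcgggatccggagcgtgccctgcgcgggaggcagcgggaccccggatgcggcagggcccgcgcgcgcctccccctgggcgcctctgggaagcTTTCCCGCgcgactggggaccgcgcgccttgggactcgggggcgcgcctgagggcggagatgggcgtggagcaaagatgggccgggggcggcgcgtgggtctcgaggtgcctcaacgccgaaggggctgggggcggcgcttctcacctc
Cdkn2a start of p16INK4A, chr4:89282143-89282442, minus strand: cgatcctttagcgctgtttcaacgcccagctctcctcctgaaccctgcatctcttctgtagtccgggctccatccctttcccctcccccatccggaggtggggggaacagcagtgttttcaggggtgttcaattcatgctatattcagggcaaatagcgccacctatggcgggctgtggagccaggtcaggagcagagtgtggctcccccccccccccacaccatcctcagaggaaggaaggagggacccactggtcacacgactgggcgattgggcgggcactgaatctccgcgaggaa

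An E2F match was present in the windows of *Ezh2* (TTTGGCGC, 3 bases after the start site) and *Suz12* (TTTCCCGC, at −219), and in the window of the p19ARF start (TTTCCCGC, at −99). It was found in 2.26% of all 32851 promoter windows of this length. An E-box was present in *Bmi1* (at −215) and *Cbx8* (at −98), against 7.15% of all windows, while the T-box motif AGGTGTGA (1.28% of all windows, both strands) was in none of the member or *Cdkn2a* windows. The windows of *Rnf2*, *Eed*, *Ezh1* and *Cbx7* held none of these motifs. They are not shown, nor is that of *Cbx8*, so every member window shown held a match. The member windows were rich in CpG, from 17 in *Eed* to 41 in *Suz12*, against a median of 7 over all windows. Each E2F form and the E-box hold a CpG, and no share over windows equally rich in CpG was computed. The shares over all windows are therefore not a matched comparison. No matches overlapped. A match describes the sequence and is not evidence of a bound factor.

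Polycomb genes were mostly higher in aged gastric organoids than in young gastric organoids. Of the 9, 7 had the higher signal on the aged array, and 3 of them, *Ezh2*, *Bmi1* and *Cbx7*, were higher by 2-fold or more, while none was that much lower. Their median difference was 0.65 on the log2 scale, with a range from −0.34 for *Cbx8* to 1.99 for *Ezh2*, whereas the median of all 11571 genes above background was 0.0021. Across those genes 11.3% were higher and 11.8% lower by 2-fold or more. The share of the members at least 2-fold higher was 33.3%, which is 3 genes.

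These differences come from 1 array per group, so no test, error or p-value could be computed, and age cannot be told apart from any other difference between the cultures. The signals are RMA values taken as log2, and every fold rests on that base. As a background reference served the 95th percentile of 1399 genes for olfactory and vomeronasal receptors, which a gastric epithelium should not use (5.36, young, and 5.54, aged). The differences of those receptor genes between the arrays had an SD of 0.50, and 5.36% of them were at least 2-fold apart, which describes the precision of dim genes only. All 9 members were above the reference on both arrays. Both cultures carried the RNA of an epithelium, with 10 of 10 epithelial markers above the reference (their median difference was 0.43), whereas leukocyte (0 of 8), endothelial (0 of 7) and fibroblast markers (2 of 8) were nearly all under it. In RNA from whole cultures, fewer cells of a type and less RNA per cell cannot be told apart.

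**Figure D1:**
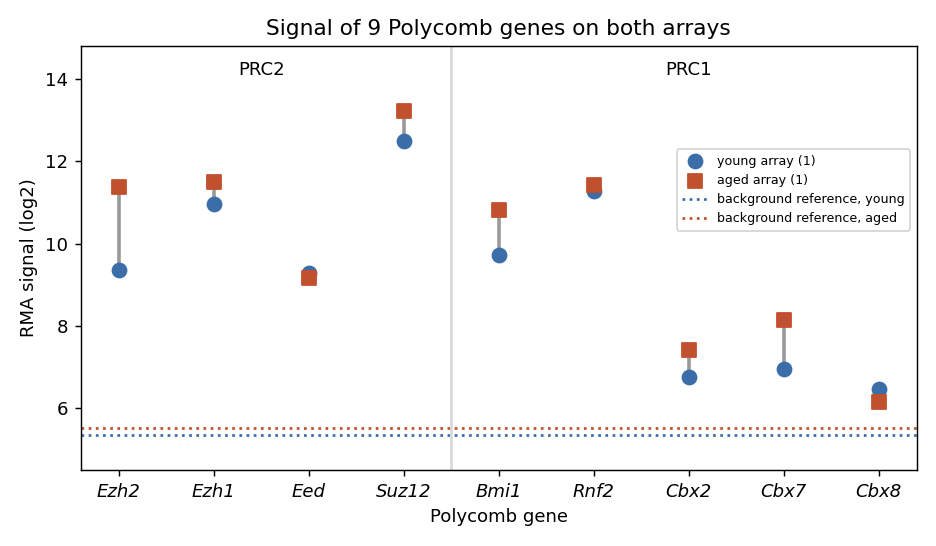
RMA signal (log2, vertical axis) of the 9 Polycomb genes on the young array (circles) and the aged array (squares), 1 array each, with the background reference of each array as dotted lines. The widest gap is that of *Ezh2* (9.37 and 11.37), and *Eed* and *Cbx8* are the 2 genes with the lower signal on the aged array.

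Among PRC2 genes, the catalytic subunit *Ezh2* had the largest difference. *Ezh2*, the methyltransferase that prevails in dividing cells, was at 9.37 in the young and 11.37 in the aged culture. The difference of 1.99 was a 3.98-fold higher signal, and 3.29% of all genes above background were at least as high. *Ezh1*, the paralog that remains in resting cells, was at 10.96 and 11.50, a difference of 0.54 (1.45-fold). Both paralogs were thus higher on the aged array, *Ezh2* by more, and the signal of *Ezh2* relative to that of *Ezh1* shifted by 1.45 (2.74-fold) between the arrays.

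The 2 core partners of the enzyme did not follow it closely. *Suz12*, which holds the complex together, was at 12.50 in the young and 13.21 in the aged culture, a difference of 0.71 (1.64-fold). *Eed*, which binds the methyl mark and stimulates the enzyme, was at 9.29 and 9.17, a difference of −0.11. Of all genes above background, 87.1% were at least as far apart as *Eed* in either direction. Relative to *Eed*, *Ezh2* shifted by 2.11 on the log2 scale, and relative to *Suz12* by 1.28. The gaps between *Ezh2* and the other PRC2 members were narrower with each difference taken from the median of its chromosome. *Ezh2* was then at 1.31, *Suz12* at 0.72, *Ezh1* at 0.55 and *Eed* at −0.10.

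Among the PRC1 genes, *Bmi1* and *Rnf2* differed unequally between the arrays. *Bmi1*, whose product pairs with RNF2 and activates it, was at 9.72 in the young and 10.82 in the aged culture, a difference of 1.10 (2.15-fold). *Rnf2*, the ubiquitin ligase itself, was at 11.27 and 11.43, a difference of 0.16. Of this catalytic pair it was therefore the partner *Bmi1*, and not the ligase, that was over 2-fold apart, with a shift of 0.95 between them. By rank, 9.64% of all genes above background were at least as high as *Bmi1* and 41.4% at least as high as *Rnf2*.

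The 3 CBX genes, which encode alternative readers of the methyl mark, did not share a direction. *Cbx7*, the reader found in many stem and progenitor cells, was at 6.97 in the young and 8.15 in the aged culture, a difference of 1.18 (2.27-fold). *Cbx2* was at 6.78 and 7.43, a difference of 0.65 (1.57-fold). *Cbx8* was close to background, at 6.48 and 6.14, with a difference of −0.34, or 1.26-fold lower on the aged array. The aged signal of *Cbx8* lay 0.61 above the reference of the aged array, and its difference was smaller than the SD of the receptor genes. The gap between *Cbx7* and *Cbx8* shifted by 1.52 (2.86-fold), so the differences of the readers were unequal.

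*Ezh2* lies on chromosome 6, where genes were higher on the aged array as a group, and the other 8 members do not. The median difference over the 553 genes of chromosome 6 above background was 0.68, and that of chromosome 12 was 0.60, while the medians of the other 18 chromosomes lay between −0.10 and 0.03. Relative to its chromosome, *Ezh2* was 1.31 higher, still over 2-fold. On chromosome 6, 46 genes (8.32%), *Ezh2* included, were at least as high as *Ezh2*, against 3.29% over all chromosomes. *Bmi1* on chromosome 2 and *Cbx7* on chromosome 15 lay 1.16 and 1.18 above the medians of their chromosomes, which were close to 0. *Suz12*, *Ezh1*, *Cbx2* and *Cbx8* share chromosome 11, whose median was −0.01, and lay from −0.32 to 0.72 apart from it. The part of chromosome 6 in the *Ezh2* difference was not tested.

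The nearest genes of each member, 5 above background on either side in the RefSeq gene order, were compared in the same way. *Ezh2* was higher than all 10 of its neighbors, whose median was 0.67, with a range from −0.80 for *Tcaf2* to 1.33 for *Arhgef5*. Its direct neighbor *Cul1*, a scaffold of ubiquitin ligases, differed by 0.79. The neighborhood of *Ezh2* was therefore as high as its chromosome, and *Ezh2* lay 1.32 above it.

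*Bmi1* and *Cbx7* were also above all 10 of their neighbors. As these members and *Ezh2* are the 3 called at least 2-fold higher, this place follows in part from that choice. For *Eed* 9 of its 10 neighbors were at least as high, for *Cbx8* 7 and for *Ezh1* and *Cbx2* 3 each. For *Rnf2* the count was 2, and for *Suz12* 1. The *Bmi1* neighbors had a median of 0.25. Next to *Bmi1*, *Commd3*, which lies directly upstream, differed by −0.79, and *Spag6* on the other side by 0.50. The *Cbx7* neighbors had a median of 0.18 and none was above 0.95. *Apobec3* next to *Cbx7* differed by −1.09, and *Pdgfb* on the other side by 0.06. For the 3 members that were at least 2-fold higher, adjacent genes were thus not that far apart in the same direction, except *Arhgef5* and *Zfp398* (1.07) beside *Ezh2*. *Cbx2* and *Cbx8* are direct neighbors themselves, and their signals went in opposite directions (0.65 and −0.34).

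**Figure D2:**
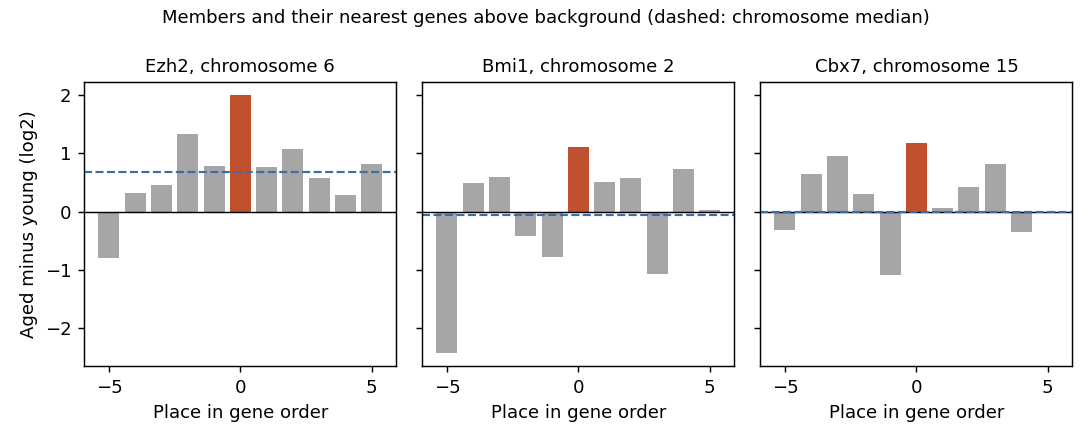
Difference aged minus young (log2, vertical axis) of *Ezh2*, *Bmi1* and *Cbx7* (colored bars at place 0) and of the 5 genes above background on each side (gray), in gene order, with the median of the chromosome as a dashed line. The members shown were picked for differences of at least 2-fold, and the colored bar is the highest in each panel. Only around *Ezh2* does the dashed line lie well above 0, at 0.68.

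The rest of the Polycomb machinery, listed as the other subunits of PRC2, canonical PRC1 and variant PRC1, was less one-sided. Of 34 genes measured, 32 exceeded the reference, and among them 7 were higher and 4 lower by 2-fold or more, 21 fell short of 2-fold, and the median was 0.21. The share higher was 21.9% and the share lower 12.5%, against 11.3% and 11.8% over all genes. *Cbx6*, *Scml2* and *Auts2* were not analysed here.

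Of the other PRC2 genes, 2 of 9 above background reached 2-fold in the higher direction and none in the lower (median 0.51). *Lcorl*, a close relative of the PRC2 partner *Lcor*, differed by 1.26. *Jarid2*, which guides PRC2 to chromatin, was at 8.13 and 9.29. The histone binding core subunit *Rbbp4* differed by 0.78, *Aebp2* by 0.71, *Phf1* by 0.51 and *Mtf2*, which recruits the complex to CpG-rich DNA, by −0.38. *Rbbp7*, *Lcor* and *Epop* differed by 0.10, 0.12 and −0.03, and *Phf19* was under the reference on both arrays. The list thus held 7 genes with the higher signal on the aged array and 2 with the lower.

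Canonical PRC1 genes outside the members went in both directions, with 1 of 7 higher and 2 lower by 2-fold or more (median 0.04). *Phc1*, a polyhomeotic subunit that links PRC1 complexes into larger bodies, was at 7.24 in the young and 9.11 in the aged culture, a difference of 1.87, and like *Ezh2* lies on chromosome 6. Its paralogs *Phc2* and *Phc3* differed by −0.18 and 0.26. *Scmh1*, which encodes a Polycomb protein that associates with the polyhomeotic subunits, was lower on the aged array, at 11.19 and 9.01 (difference −2.17), and so was *Scml4* (7.40 and 6.11). *Pcgf2* (MEL18), the paralog of *Bmi1*, did not share its difference, at 7.42 and 7.46. *Ring1*, the paralog of *Rnf2*, was under the reference on the young array (5.18) and just above it on the aged array (5.96), a bound of at least 1.52-fold.

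Variant PRC1 complexes use other PCGF proteins in place of BMI1 and need no CBX reader. Of 16 such genes above the reference, 4 were higher and 2 lower by 2-fold or more (median 0.21). *Rybp*, which takes the place of the CBX protein, was at 8.76 in the young and 10.19 in the aged culture (1.43), and lies on chromosome 6. *Pcgf6* differed by 1.37, its partner *E2f6* by 1.09 (on chromosome 12) and *Pcgf5* by 1.05. The lower genes were *Pcgf3* at −1.72 and *Fbrsl1* at −1.16, so the PCGF paralogs were not shifted together. *Kdm2b*, which brings a variant complex to CpG islands and represses the *Cdkn2a* locus in mouse fibroblasts, was under the reference on both arrays. With each difference taken from the median of its chromosome, 2 rather than 4 of these genes were at least 2-fold higher.

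Genes that act against Polycomb differed little between the arrays. Of 9 genes above background that remove the Polycomb marks or serve their removal, none was higher and 1 was lower by 2-fold or more, *Foxk1* at −1.21 (median −0.06). The demethylases *Kdm6a* and *Kdm6b*, which take off the mark that EZH2 places, differed by −0.06 (11.87 and 11.80) and −0.54 (10.29 and 9.75). *Bap1*, an enzyme that removes ubiquitin from histone H2A, differed by −0.22. *Asxl2*, a partner of BAP1, was the highest at 0.98, on chromosome 12. Of 18 Trithorax and SWI/SNF genes, whose products oppose Polycomb at the same loci, none was at least 2-fold apart in either direction (median 0.13, from −0.74 for *Smarca2* to 0.99 for *Pbrm1*). With each array centred on its median, 1 gene of each of these lists passed 2-fold in the higher direction. *Kmt2a*, *Ash1l* and *Arid1a* were not analysed here.

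**Figure D3:**
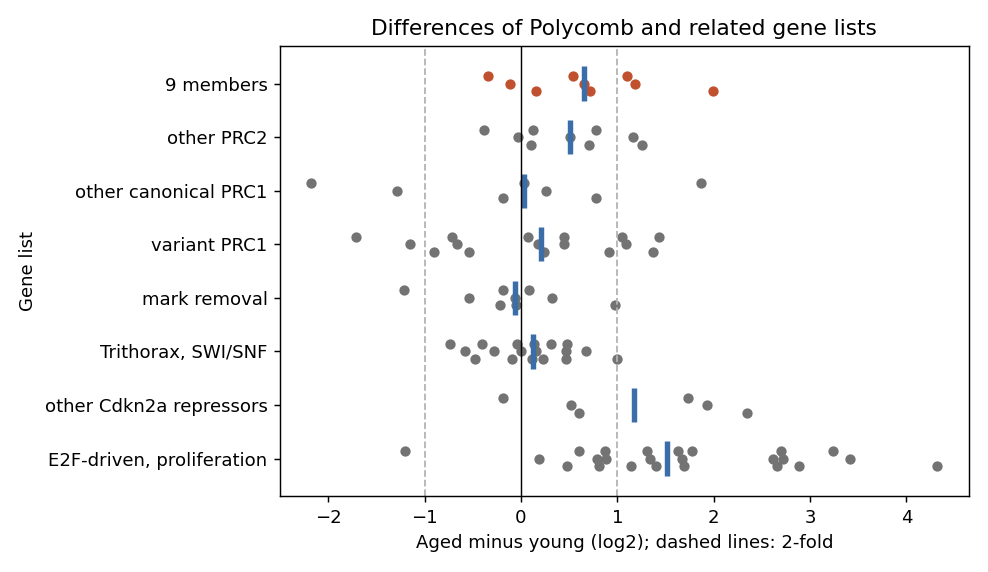
Difference aged minus young (log2, horizontal axis) of single genes above background (points) in the 9 members and 7 related lists, with the median of each list as a vertical bar and 2-fold as dashed lines. The members lie between −0.34 and 1.99 around a median of 0.65, the mark removal and the Trithorax and SWI/SNF lists are centered at −0.06 and 0.13, and the proliferation list is centered at 1.51.

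At the *Cdkn2a* locus, 2 of 3 genes were lower by 2-fold or more on the aged array. The signal of *Cdkn2a* itself was 9.03 in the young culture and 3.09, under the reference, in the aged culture, a bound of at least 11.3-fold lower. *Cdkn2b*, which encodes the inhibitor p15INK4B and lies beside *Cdkn2a*, was at 10.11 and 8.04 (difference −2.07) and stayed 2.50 above the reference. *Mtap*, a metabolic gene on the far side of *Cdkn2a*, was at 14.66 and 15.12 (0.47). The 2 inhibitor genes were thus lower on the aged array and the flanking gene was not. The part of the members in these differences was not tested. The values of *Cdkn2a* carry no information on which of its 2 start sites was used, since 1 probe set covered the gene.

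**Figure D4:**
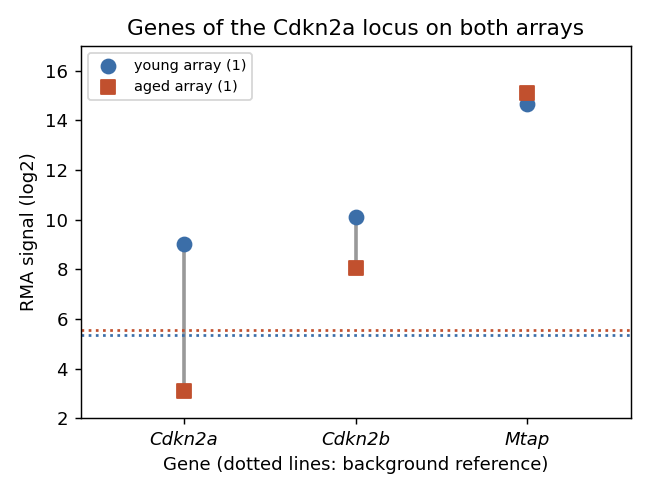
RMA signal (log2, vertical axis) of *Cdkn2a*, *Cdkn2b* and *Mtap* on the young array (circles) and the aged array (squares), 1 array each, with the background references as dotted lines. *Cdkn2a* passes from 9.03 to below the reference, *Cdkn2b* stays above it, and *Mtap* is slightly higher on the aged array.

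Of the other repressors of *Cdkn2a*, 3 of 6 above background were at least 2-fold higher on the aged array (median 1.17). None was lower by as much. The share higher was 50%, against 11.3% over all genes. With each difference taken from the median of its chromosome, the list median was 0.97 and 3 genes were still at least 2-fold higher. *Id1*, an inhibitor of the factors that activate p16INK4A, was at 10.08 and 12.43 (2.34). *Zfp277*, a zinc finger protein that brings BMI1 to the locus in mouse fibroblasts, was at 9.69 and 11.62 (1.93), and lies on chromosome 12. *Tbx3* was under the reference on the young array (5.29) and at 7.03 on the aged array, or at least 3.19-fold higher. *Tbx2* (0.52), *Cdc6* (0.60) and *Zbtb7a* (−0.19) were less than 2-fold apart, and *Twist1* and *Twist2* were under the reference on both arrays. Among 5 genes that activate the locus, *Ets2* was at least 2-fold higher (1.30), *E2f1* was at least 1.49-fold higher, *Dmtf1* and *Hbp1* differed by −0.01 and 0.31, and *Ets1* gave no fold, as its signals were near the reference. The repressors and the activators were therefore not mirror images.

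Genes of dividing cells were also higher on the aged array. Of 24 E2F-driven and proliferation genes, all above background, 16 were higher on the aged array by 2-fold or more and 1, *Ccne1* (−1.21), was that much lower (median 1.51). *Ccna2* (4.32), *Mki67* (3.41), *E2f8* (3.24) and *Mcm5* (2.88) differed most. The *Ezh2* difference of 1.99 was above the median of this list, and those of *Bmi1* (1.10) and *Cbx7* (1.18) were below it. Of the 24 genes, 23 had the higher signal on the aged array, and only *Ccne1* the lower. Among the members, *Eed* (−0.11) and *Cbx8* (−0.34) had the lower signal there, and *Rnf2* differed by 0.16. The part of proliferation in the differences of the members was not tested.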

How the data were processed

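RNA of young and aged gastric organoids was measured on 1 Clariom S mouse array per group. RMA and Affymetrix Power Tools are the tools that the submitters' notes give, without a version, for the deposited log2 values, 1 per probe set. The base of the logarithm was not given in the sources used here and base 2 was assumed. On the young array 225 probe sets and on the aged array 241 exceeded 16, the log2 ceiling of a 16-bit scan, so the scale is not that of the raw scan, and the folds are those of the authors' scale. Among 22206 probe sets, 19572 with 1 gene symbol gave 19505 genes (55 with several probe sets, averaged). All gene identifiers matched RefSeq, and no symbol changed.

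The comparison was aged minus young, called at 2-fold for genes above the reference on at least 1 array. Where only the dimmer signal was under the reference, the fold was set from the reference and is a bound. Genes under it on both arrays have no fold. Every member and every gene of the *Cdkn2a* locus was named, genes of lists of up to 10 genes freely, and from longer lists up to 4 per direction with the largest differences at 2-fold. A few genes outside that rule (*Kdm2b*, *Smarca2*, *Pbrm1*, silent developmental regulators and neighbors of members) were named after their values were seen. The members and lists were chosen with earlier results of these data known. The steps were tested on simulated arrays. Python 3.11.15 with numpy 2.4.6, pandas 2.3.3 and matplotlib 3.10.9 was used.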

Additional observations from a re-analysis of the deposited data

How the results depend on the processing

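*Ezh2*, *Bmi1* and *Cbx7* remained the 3 members at least 2-fold higher under 3 other scalings of the arrays and after subtraction of the chromosome median. Taking the brightest probe set could not change the members, since each had 1 probe set. Nor could a reference at the 90th or the 99th percentile change these 3 calls, since the 3 genes lay above both references on both arrays. *Bmi1* was closest to the threshold, from 1.02 to 1.16 over the alternatives. *Ezh2* was 1.31 after subtraction of the chromosome median and up to 2.04 otherwise. At a 1.5-fold threshold 5 members were called, with *Suz12* and *Cbx2* added, and at a 3-fold threshold 1, *Ezh2*, where 22.4% and 5.33% of all genes were higher by as much. The median of the other repressors of *Cdkn2a* was 1.74 with the reference at the 99th percentile, where fewer genes were above it. Of the member and list medians and differences, no sign of a value at least 2-fold apart changed. Counts at bounds in place of measured differences were an alternative chosen after seeing the data. They could not change the members, since all 9 were above the reference on both arrays. Of the smaller counts and shares, 24 values moved by over 1.5 times and 244 did not, mostly with the fold threshold. No paired analysis was possible because each group had 1 array. With 1 array per group no replicate could be left out, and the spread used to judge a shift was the SD of the receptor genes (0.50).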

Other observations

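Developmental regulators that Polycomb keeps silent in most adult tissues were largely at background on both arrays. Of 51 measured, 36 were under the reference on both, among them *Evx1*, *Evx2*, *Foxd3* and *Wnt1*. Of the 15 above it on at least 1 array, 3 were higher and 4 lower on the aged array by 2-fold or more (median −0.01). The higher genes were the HOX gene *Hoxa10* (6.01, young, and 12.05, aged, on chromosome 6), *Pax9* (6.19 and 8.30) and *Pax3* (6.46 and 8.11). The lower genes were *Hoxb13* and the foregut regulators *Foxa2* (8.26 and 6.31), *Gata6* (7.52 and 5.63) and *Gata4* (12.95 and 11.30). *Hoxb13* (5.42 and 4.23) was counted by its measured difference only. It was just above the reference on the young array and under it on the aged array, and has no fold. The list therefore had no common direction.

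Inhibitors of cyclin-dependent kinases encoded outside the *Cdkn2a* locus did not share a direction. Of 4 above background, 3 were at least 2-fold higher on the aged array, *Cdkn1b* (6.34 and 11.07, on chromosome 6), *Cdkn2d* (6.85 and 9.13) and *Cdkn2c* (5.28, under the reference, and 7.08, at least 3.30-fold higher). *Cdkn1a*, like *Cdkn2a*, was lower (17.43 and 14.31), and *Cdkn1c* was under the reference on both arrays.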
